A study of Mus musculus with 6 samples.

Results

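7SK, 7SL, the Y RNAs and 4.5S RNA are short non-coding RNAs made by RNA polymerase III, and their RNA was compared between mouse embryonic fibroblasts with and without β-actin. They were taken by row name: 7 of the 1336 rows of the deposited counts are called 7SK, 7SLRNA, 4.5SRNA, HY1, HY3, HY4 and HY5. Of these, 5 had enough counts to be tested among 1193 tested rows, and HY4 and HY5 did not.

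The knockout (KO) fibroblasts lack β-actin, and the labels of the series give their genotype as Actb-/-. The wild-type (WT) fibroblasts carry intact Actb. The labels give the BALB/c strain and an embryo age of 10.5 days for both genotypes, and 3 biological replicates of each were sequenced from total RNA depleted of ribosomal RNA. The labels do not say whether replicates came from separate embryos or cultures, so p-values measure the spread between these libraries. The rows hold repeats and structural RNAs and no protein-coding genes, so neither Actb nor fibroblast markers could be checked.

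Polymerase III transcribes small, abundant RNAs such as tRNAs, 5S rRNA and U6, and β-actin has itself been found in polymerase III complexes. 7SK RNA holds the elongation factor P-TEFb in an inactive particle with HEXIM and LARP7 proteins. 7SL RNA is the scaffold of the signal recognition particle, which brings ribosomes that make secreted and membrane proteins to the endoplasmic reticulum. Y RNAs bind the protein Ro60 and are known in RNA quality control and the start of DNA replication. The 4.5S RNAs are small RNAs of rodents related to SINE sequences, and the row name does not say whether it is the H or the I type.

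The reference sequences below, of 7SK and the Y RNAs, show the annotated genes that match these row names and which parts of the Y RNAs are alike. By name, 4 of the 7 rows matched transcripts of GENCODE M21 on GRCm38, a build that the submitters' processing notes also name. Rn7sk, the 7SK gene, lies at chr9:78175303-78175633 on the minus strand and overlaps no other annotated gene. The Y RNA genes Rny1, at chr6:47788069-47788180 on the minus strand, and Rny3, at chr6:47781624-47781725 on the plus strand, are 6343 bases apart, overlap no other annotated gene and have Pdia4 as the nearest coding gene. Of the 331 bases of Rn7sk the first 120 are shown, which hold the part that HEXIM binds. Capitals mark each GATC in Rn7sk, and in Rny1 and Rny3 each run of 8 or more bases that both hold.
Rn7sk: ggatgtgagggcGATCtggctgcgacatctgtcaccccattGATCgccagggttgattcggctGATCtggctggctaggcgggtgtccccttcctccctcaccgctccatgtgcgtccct
Rny1: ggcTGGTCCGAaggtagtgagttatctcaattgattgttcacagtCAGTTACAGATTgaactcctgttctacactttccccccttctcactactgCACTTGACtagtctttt
Rny3: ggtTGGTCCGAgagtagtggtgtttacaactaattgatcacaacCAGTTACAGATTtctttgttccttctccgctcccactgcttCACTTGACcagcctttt

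In the whole of Rn7sk the 3 GATC matches start at bases 13, 42 and 64, all near the 5′ end, and in human 7SK the repeated GAUC motif of that end is the binding site of HEXIM1. Rny1 and Rny3 matched at 81 of 112 aligned positions, or 72.3%. Their shared runs are TGGTCCGA, from base 4 in both, CAGTTACAGATT, from base 46 in Rny1 and 45 in Rny3, and CACTTGAC, from base 96 in Rny1 and 86 in Rny3. The paired ends of Y RNAs form the stem that Ro60 binds. RefSeq lists 2 genes of the Y RNA type in the mouse, Rny1 and Rny3, so that the rows HY4 and HY5, which carry the names of human Y RNAs, had no such gene to match. A row sums whatever matches its name anywhere in the genome and has no coordinates. Reads of a gene and of its dispersed copies therefore cannot be told apart, nor can antisense reads, since no source used here states how strand was treated.

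Library totals ran from 9191049 to 19288620 counts in KO and from 7708630 to 17937809 in WT. Most of this spread was rRNA left after depletion, which took 84.8%, 52.9% and 77.0% of the counts in KO replicates 1, 2 and 3, and 32.4%, 84.1% and 73.7% in WT replicates 1, 2 and 3. KO replicate 1 and WT replicate 2 thus held the most rRNA, and KO replicate 2 and WT replicate 1 the least. Levels below are CPM of an effective library size from edgeR's TMM method (trimmed mean of M-values), which scales libraries on the rows in the middle of the fold change range. They are called normalized CPM, and a shift of all rows together would not show in them. The TMM factors were extreme, from 0.423 in KO replicate 1 to 3.13 in WT replicate 1. WT replicate 1 thus had an effective size of 24100322 against 7708630 counts. Normalized CPM are therefore not shares of the counts actually sequenced. In bulk RNA, less RNA per cell and fewer cells that make the RNA cannot be told apart.

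7SK and 7SL were by far the most abundant members. Of all counts outside rRNA, 7SK took 7.75% ± 1.35 in KO and 8.44% ± 1.44 in WT (SD, n = 3 each), and 7SL took 6.45% ± 1.70 in KO and 7.92% ± 2.18 in WT. In KO replicate 1 the 7SK share was 6.35%, with an exact (Clopper-Pearson) 95% interval of 6.33% to 6.38% that covers counting error only, so the spread between libraries far exceeds it. Levels per length divide the whole row, with any dispersed copies in it, by the length of a reference transcript. Per length, 7SK stood at 63675 ± 5025 normalized CPM per kilobase in KO and 71688 ± 7475 in WT. 7SL stood at 57553 ± 5614 in KO and 72798 ± 6532 in WT. The libraries' 7SK to 7SL ratio per length was 0.991 to 1.28 in KO and 0.902 to 1.13 in WT, so the order of these neighbours did not hold in every library. Far below came HY3, at 47.6 ± 3.75 normalized CPM per kilobase in KO and 59.5 ± 27.6 in WT, and HY1, at 27.9 ± 7.29 in KO and 43.2 ± 12.4 in WT. The level of 7SL per length was 763 to 2306 times that of HY3 across the 6 libraries. The HY3 to HY1 ratio per length was 1.44 to 2.56 in KO and 0.933 to 2.56 in WT, so that pair has no fixed order in WT. The 4.5S row was not placed in this order, because its name does not give the RNA type and hence the length. No source used here states how fragments were selected by size, and the Y RNAs are the shortest of the matched transcripts.

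No member passed the test between genotypes. All 5 tested members had a log2 fold change below 0, against 47.7% of all 1193 tested rows, with a median of -0.25 over the members and 0.01 over all tested rows. In 3 members, 7SL, 4.5S and HY1, every KO library lay below every WT library, which held for 13.4% of all tested rows. Neither trait was particular to the members. The fold change was below 0 in 37 of 39 tRNA, 9 of 9 snRNA (without U6), 16 of 16 B1, 5 of 5 B2 and 6 of 7 B4 and ID rows. It was also below 0 for U6 and BC1_Mm, but not for 5S, which is itself an rRNA row in libraries depleted of rRNA. All KO libraries lay below all WT libraries in 24, 6, 2, 3 and 0 rows of these lists, and for U6 and BC1_Mm. By edgeR's quasi-likelihood test with Benjamini-Hochberg adjustment over all tested rows at 0.05, 0 of the 5 were called. In the background, 3.60% of tested rows (43) were called lower in KO and 2.18% (26) higher. The lower calls numbered 43, 11 and 17 without KO replicates 1, 2 and 3 in turn. They numbered 30, 26 and 14 without WT replicates 1, 2 and 3 in turn. At an unadjusted p below 0.05, 2 members were lower, 4.5S and HY1, as were 11.3% of all tested rows. By DESeq2, 1 of the 5 was called, 7SL, and by limma-voom 0.

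**Figure D1:**
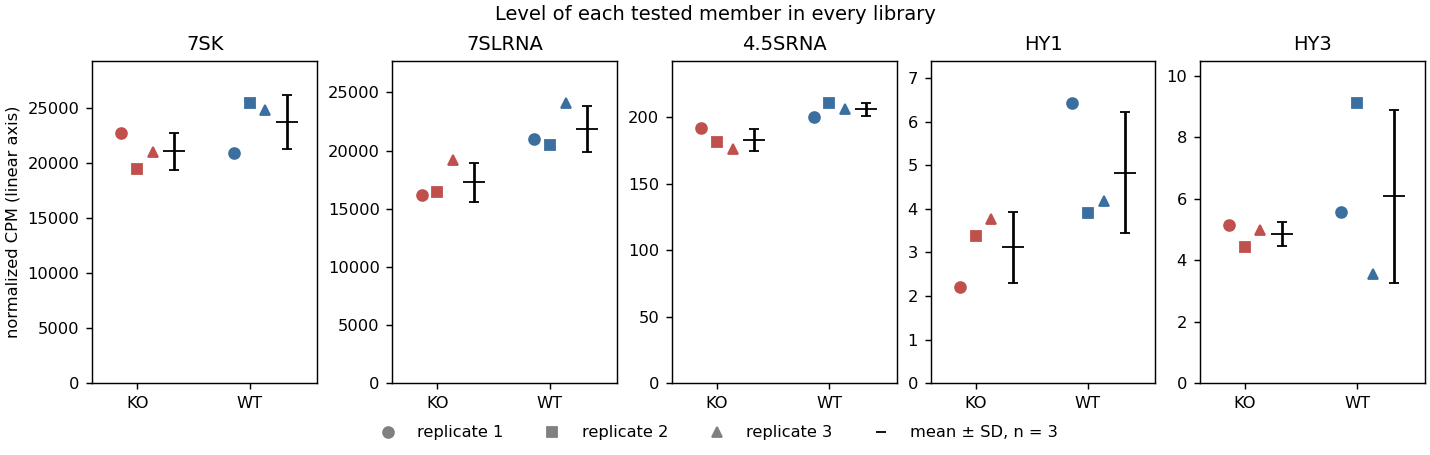
Normalized CPM (linear axes from 0) of the 5 tested members in each library, KO left and WT right. Marker shapes give the replicate, and bars the mean ± SD of 3 libraries. The KO and WT points do not overlap for 7SLRNA, 4.5SRNA and HY1, and overlap for 7SK and HY3.

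7SK, the regulator of P-TEFb, had 22775, 19451 and 21002 normalized CPM in KO replicates 1, 2 and 3, against 20897, 25473 and 24816 in WT replicates 1, 2 and 3. WT replicate 1 lay within the range of KO, so the groups overlapped, and WT replicates 2 and 3 lay above all KO libraries. The means were 21076 ± 1663 in KO and 23729 ± 2474 in WT. The log2 fold change was -0.17 (SE 0.16, 95% interval -0.55 to 0.21, edgeR adjusted p = 0.603). The interval therefore includes both a small rise and a fall larger than that of 7SL.

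7SL, the RNA of the signal recognition particle, had 16150, 16445 and 19203 normalized CPM in KO replicates 1, 2 and 3, against 21007, 20433 and 24078 in WT replicates 1, 2 and 3. All KO libraries lay below all WT libraries, with the nearest pair being KO replicate 3 and WT replicate 2. KO stood at 0.791 of the WT level, or -0.34 on the log2 scale (SE 0.16, 95% interval -0.70 to 0.03), which did not pass (edgeR adjusted p = 0.278). DESeq2 gave the same log2 fold change of -0.34 and called it (adjusted p = 0.00171), and limma-voom did not (adjusted p = 0.0677). Over all alternatives run the adjusted p ranged from 0.00171 to 0.998, and only DESeq2 called 7SL. Within edgeR the adjusted p ranged from 0.0560, with the rRNA level as a covariate, to 0.998, on counts without scaling. It thus depended on scaling and covariate as well as on the tool.

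4.5S RNA, the small rodent RNA, was the most evenly measured member. It had 192, 181 and 176 normalized CPM in KO replicates 1, 2 and 3, against 201, 211 and 207 in WT replicates 1, 2 and 3. The groups did not overlap, and the highest KO library lay just below the lowest WT library. KO averaged 183 ± 8.14 and WT 206 ± 5.14, a difference of -0.17 on the log2 scale (SE 0.06, 95% interval -0.30 to -0.04). That change did not pass after adjustment over all rows (edgeR adjusted p = 0.130, unadjusted p = 0.0167).

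HY1, the row matched by name to Rny1, rested on few reads. Counts were 18, 68 and 56 in KO replicates 1, 2 and 3, against 155, 30 and 60 in WT replicates 1, 2 and 3. Scaled, these were 2.21, 3.38 and 3.78 normalized CPM in KO, against 6.43, 3.90 and 4.18 in WT. All KO libraries lay below all WT libraries, although KO replicate 3 and WT replicate 2 nearly met. The log2 fold change of -0.64 was the furthest below 0 among the members (SE 0.27, 95% interval -1.25 to -0.03). It missed the threshold (edgeR adjusted p = 0.218, unadjusted p = 0.0416). Without WT replicate 1, the library with the least rRNA, it was -0.33.

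HY3, the row matched by name to Rny3, also rested on few reads. Counts were 42, 89 and 74 in KO replicates 1, 2 and 3, against 134, 70 and 51 in WT replicates 1, 2 and 3. Scaled, these were 5.15, 4.42 and 4.99 normalized CPM in KO, against 5.56, 9.10 and 3.55 in WT. The KO libraries lay close together inside the wide range of WT, whose highest and lowest libraries were replicates 2 and 3. The log2 fold change was -0.25 (SE 0.30, 95% interval -0.94 to 0.44, edgeR adjusted p = 0.692). Without WT replicate 2 it turned to 0.03.

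HY4 and HY5 were at or near the limit of counting. HY4 had 0, 2 and 1 counts in KO replicates 1, 2 and 3, against 3, 1 and 0 in WT replicates 1, 2 and 3. The summed 3 and 4 counts give a KO to WT ratio of 0.803 with an exact 95% counting interval of 0.118 to 4.75. HY5 had 0 counts in all 6 libraries, which allows up to 0.692 to 1.03 CPM in KO and 0.576 to 1.05 CPM in WT, as CPM of the counts outside rRNA with a limit of 3 counts per library. With no filter on low counts HY4 was fitted and was not called (edgeR adjusted p = 0.937). Human cells have genes for both RNAs.

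**Figure D2:**
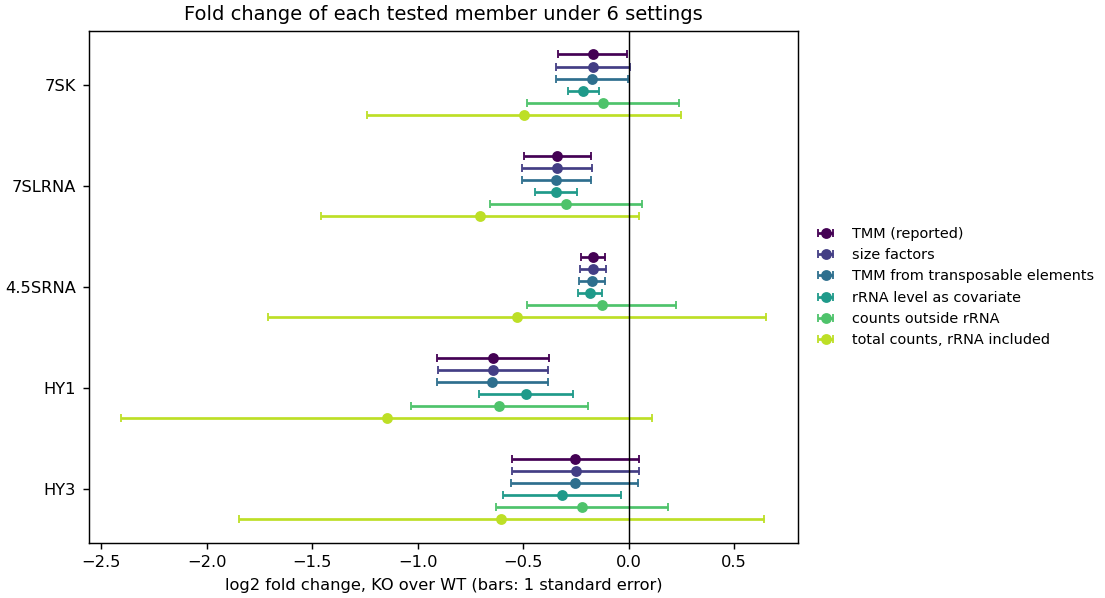
Log2 fold change, KO over WT, of each tested member under 6 settings (colours), with bars of 1 standard error. All points lie below 0, and the bars are widest for total counts, where rRNA sets the scale and the values run from -0.50 for 7SK to -1.15 for HY1.

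The sign of all 5 members was the same under every scaling tried, while the size depended on it. On total counts, rRNA included, the log2 fold changes were -0.50 for 7SK, -0.71 for 7SL, -0.53 for 4.5S, -1.15 for HY1 and -0.60 for HY3. The median of all tested rows itself shifted to -0.36 on that scale, and all 5 members lay below that median. With the rRNA level of each library as a covariate the values were -0.21 for 7SK, -0.34 for 7SL, -0.18 for 4.5S, -0.49 for HY1 and -0.32 for HY3, and none passed, with adjusted p from edgeR of 0.0560 to 0.528.

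Ratios of counts within a library do not depend on its scaling, and 6 were compared between genotypes. The 7SK to 7SL ratio was 1.41, 1.18 and 1.09 in KO replicates 1, 2 and 3, against 0.995, 1.25 and 1.03 in WT replicates 1, 2 and 3. The groups overlapped, and in each genotype the library with the most rRNA had the highest ratio. The log2 ratio averaged 0.29 ± 0.19 in KO and 0.12 ± 0.18 in WT (exact two-sided permutation p = 0.3, adjusted over 6 ratios 0.84, n = 3 each). The difference of 0.17 was 0.068 without KO replicate 1, 0.11 without WT replicate 1 and 0.27 without WT replicate 2.

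The HY3 to HY1 ratio was 2.30, 1.31 and 1.32 in KO replicates 1, 2 and 3, against 0.865, 2.31 and 0.851 in WT replicates 1, 2 and 3. KO replicate 1 and WT replicate 2, the libraries with the most rRNA, were close to each other and above the rest (exact two-sided permutation p = 0.6, adjusted 0.84, n = 3 each). The difference in mean log2 ratio, 0.41, was 0.14 without KO replicate 1, 0.17 without WT replicate 1, 0.88 without WT replicate 2 and 0.16 without WT replicate 3. KO replicate 1 and WT replicate 2 also had the fewest counts outside rRNA, 2926131 and 2859992, and the fewest HY1 counts, 18 and 30. The parts of rRNA content and of depth in these ratios were not tested. For 4.5S over 7SL the difference in mean log2 ratio, KO minus WT, was 0.17 (p = 0.3 by the same exact permutation test), and 0.089 without KO replicate 1, 0.28 without KO replicate 3 and 0.10 without WT replicate 3. For 7SK over U6, the polymerase III RNA of the spliceosome, whose promoter like that of 7SK lies upstream of the gene, the difference was 0.04 (p = 0.7, exact permutation). For HY1 and HY3 over 7SK it was -0.46 and -0.05 (p = 0.6 and 1, exact permutation). The HY1 to 7SK difference was -0.18 without KO replicate 1 and -0.15 without WT replicate 1. The differences of 7SK over U6 and HY3 over 7SK changed sign when single WT libraries were left out. All 6 groups of ratios overlapped, and 3 against 3 libraries cannot give an exact p below 0.1.

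**Figure D3:**
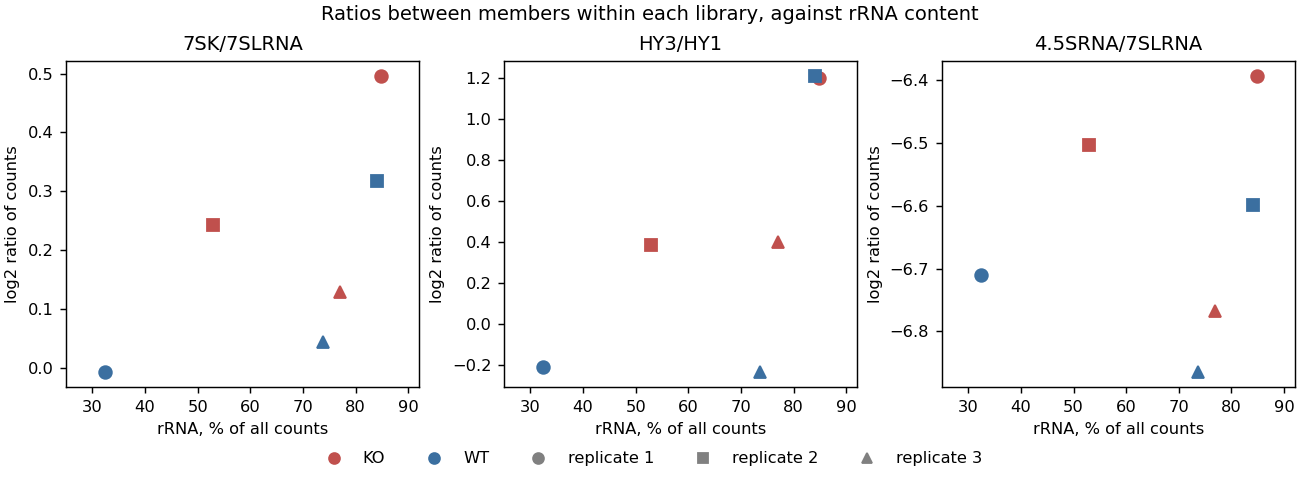
Log2 ratio of counts between members (vertical axes) against the rRNA share of all counts in percent (horizontal axes), KO and WT in colours and replicates by marker. KO replicate 1 and WT replicate 2, at 84.8% and 84.1% rRNA, have the highest HY3 to HY1 log2 ratios, 1.20 and 1.21 (2.30 and 2.31 on the linear scale). They also have the fewest HY1 counts, 18 and 30.

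Calls were present among the tRNA and snRNA rows of the same fit, whose difference from the members was not tested. Of 39 tested tRNA rows, 13 were called lower and 0 higher, with a median log2 fold change of -0.78, and of 9 snRNA rows without U6, 3 were called lower and 0 higher, with a median of -0.50. The tRNA calls numbered 11, 4 and 6 without KO replicates 1, 2 and 3 in turn. They numbered 10, 8 and 5 without WT replicates 1, 2 and 3 in turn. On total counts they were 0, as were the snRNA calls. The clearest tRNA row, tRNA-Gln-CAA, was at 1.12 ± 0.153 normalized CPM in KO and 7.44 ± 0.201 in WT, -2.73 on the log2 scale (edgeR adjusted p = 0.000529). Its counts were 10, 24 and 14 in KO and 177, 59 and 105 in WT (replicates 1, 2 and 3). tRNA-Glu-GAA followed at 0.839 ± 0.328 in KO, on 9, 19 and 7 counts, and 5.93 ± 1.05 in WT. Depth limits both rows in KO. With only rows of a mean of at least 50 counts tested, 6 tRNA rows were called lower and the tRNA median was -0.48. Of the snRNA rows, U3, a nucleolar RNA made by polymerase II in mammals, had a log2 fold change of -1.70 and U2, a spliceosomal RNA also made by polymerase II, one of -1.14.

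U6, BC1_Mm and 5S, single rows of other polymerase III RNAs, did not pass. U6 was at 36.3 ± 1.18 normalized CPM in KO and 42.1 ± 3.002 in WT, or -0.21 on the log2 scale, with no overlap of the groups (edgeR adjusted p = 0.0953). BC1_Mm, the row named for the neuronal BC1 RNA, was at 1479 ± 67.0 in KO and 1772 ± 89.4 in WT, or -0.26 on the log2 scale (edgeR adjusted p = 0.131), and among the alternatives was called with DESeq2, limma-voom and the rRNA covariate. 5S, the small ribosomal RNA, was at 37.6 ± 16.6 in KO and 28.5 ± 12.6 in WT (edgeR adjusted p = 0.601). It is an rRNA row, and was lowest in the libraries with the least rRNA. KO replicate 2 and WT replicate 1 had 18.5 and 15.9 normalized CPM of 5S, against 28.5 to 47.5 in the others. The log2 fold change of 5S, 0.44, was 0.095 without WT replicate 1, 0.80 without KO replicate 2 and 0.17 with the rRNA covariate. The part of leftover rRNA in it was not tested. B1 SINEs, which descend from 7SL, had 0 calls in 16 rows and a median of -0.10. That median was -0.15 without KO replicate 1, -0.14 without WT replicate 1 and -0.060 without KO replicate 3. B2 SINEs had 1 lower call in 5 rows, that of B2_Mm1a at -0.62 (edgeR adjusted p = 0.00429), and a median of -0.26. Their calls numbered 3 with DESeq2, limma-voom or the rRNA covariate and 0 on total counts. B4 and ID SINEs had 0 calls in 7 rows and a median of -0.08, which was -0.16 without KO replicate 1 and -0.032 without KO replicate 3. On total counts the B1, B2 and B4 and ID medians were -0.44, -0.63 and -0.44.

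**Figure D4:**
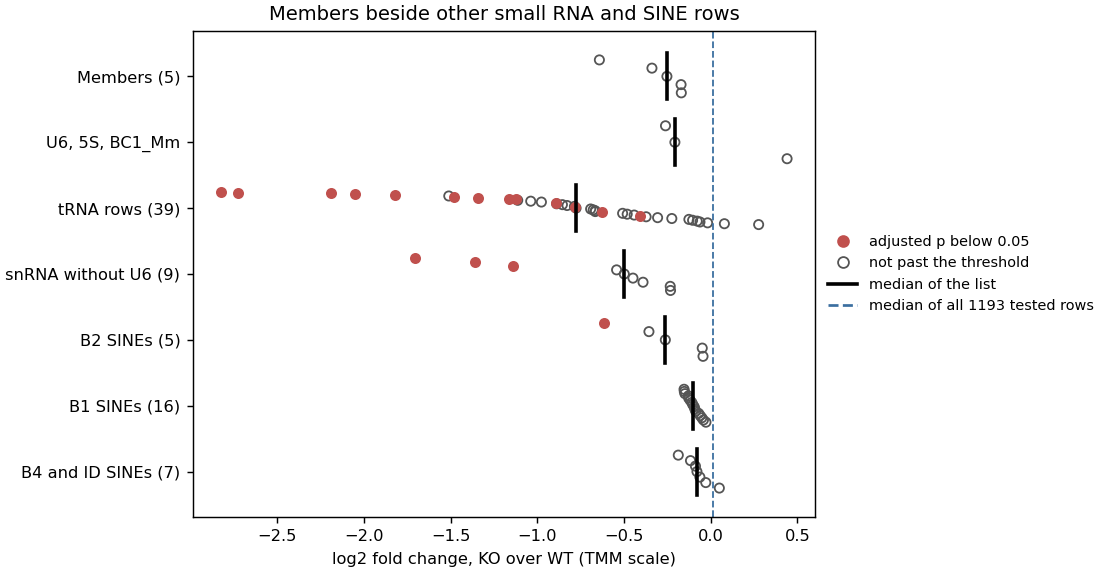
Log2 fold change, KO over WT on the TMM scale, of each tested row (circles, filled where the adjusted p is below 0.05) for the members and the comparison lists, with list medians as black bars. The members have a median of -0.25 and no filled circle, and the tRNA rows a median of -0.78 and 13 filled circles.

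Of the structural RNA counts outside rRNA, 7SK and 7SL together made up 92.3%, 91.8% and 91.6% in KO replicates 1, 2 and 3, against 89.8%, 90.0% and 90.7% in WT replicates 1, 2 and 3. All KO libraries lay above all WT libraries, by 1.72 percentage points in the means (exact two-sided permutation p = 0.1, the smallest that 3 against 3 libraries allow). This share was looked at after the values of its parts were known and is no independent result. Both members had log2 fold changes below 0, and the tRNA and snRNA rows with calls lower in KO are part of its denominator. The part of the tRNA rows or of the snRNA rows in the difference was not tested.

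Among 935 rows outside the members with a mean of at least 50 counts, those most like each member over the 6 libraries were found by the root mean square difference of centred log2 normalized CPM. For 7SK they were ID_B1, MamRTE1 and LTRIS3, at 0.041, 0.046 and 0.049, where the median row was at 0.19. For 7SL they were MER91A, MERVK26-int and RLTR1F_Mm, at 0.075, 0.084 and 0.084, with a median of 0.23. For 4.5S they were MER58B, YREP_Mm and B1_Mur1, at 0.021, 0.024 and 0.025, with a median of 0.16. HY1 was less closely matched, by UCON87B, Eutr18 and UCON9 at 0.14, 0.22 and 0.23, and HY3 by CR1-1_Amn, L1MEa and U1 at 0.20, 0.21 and 0.25, with medians of 0.42 and 0.40. Among the members themselves 7SK and 4.5S were the most alike, at 0.086, and HY1 and HY3 the least, at 0.53. HY1 and HY3 had only 18 to 155 counts a library, and the part of counting noise in their distances was not tested.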

How the data were processed

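For each of 6 libraries the authors deposited estimated counts, called fractional counts in the file names, for named repeats and structural RNAs, without normalization. All values were whole numbers. FastQC 0.11.5, Trimmomatic, Bowtie2, mm10 and GRCm38 are named per the submitters' processing notes. No source used here gives the counting tool, the repeat annotation or how reads matching several rows were divided. If rows share reads, they can move together for that reason.

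The whole table was fitted in R 4.3.3 with edgeR 4.0.16 (filterByExpr, TMM, quasi-likelihood test, KO against WT, Benjamini-Hochberg adjustment at 0.05), with standard errors taken from the test statistic. Alternatives included DESeq2 1.42.0 and limma-voom (limma 3.58.1). Ratios used a pseudocount of 0.5 and an exact two-sided permutation test. The fit was tested on simulated data. Replicates of a genotype differed far beyond sampling noise (chi-square statistic at least 179 times its degrees of freedom over the rows outside rRNA).

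Named rows were all members, U6, 5S, BC1_Mm, the 2 called rows with the smallest p in each comparison list, and the 3 rows most like each member. Members, lists and tests were chosen with earlier results of these data known. Sequences come from GENCODE M21, and gene types from RefSeq on GRCm38.p6. Sequences of 7SL and 4.5S RNA are not reported here.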

Additional observations from a re-analysis of the deposited data

How the results depend on the processing

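No member was called in any of the 18 alternatives, except 7SL with DESeq2 (log2 fold change -0.34, adjusted p = 0.00171). All 5 kept their sign throughout, except HY3 without WT replicate 2 (0.030). Leaving out single libraries gave -0.25 to -0.12 for 7SK, -0.43 to -0.25 for 7SL, -0.21 to -0.15 for 4.5S, -0.78 to -0.33 for HY1 and -0.51 to 0.030 for HY3. Without single libraries the ratio difference ran from -0.015 (without WT replicate 1) to 0.10 for 7SK over U6, and from -0.42 to 0.24 for HY3 over 7SK, above 0 without WT replicate 1 (0.026) and WT replicate 2 (0.24). Over all rows, calls lower and higher in KO numbered 0 and 0 in edgeR on total counts (3 rows at an unadjusted p below 0.05), 6 and 0 on counts outside rRNA, 11 to 43 and 11 to 26 without single libraries, 7 and 2 without the library of each genotype lowest in rRNA, and 23 and 13 without those highest in rRNA, a setting chosen after seeing the data. With the replicate number as a block they numbered 14 and 10, and no member's call changed. Replicate numbers are not said to mark a litter or batch, so they were not used as pairs. Deviations of same-numbered KO and WT libraries correlated at -0.44, -0.39 and 0.02. Those of KO replicate 2 and WT replicate 1, lowest in rRNA, correlated at 0.51, and those of KO replicate 1 and WT replicate 2, highest in rRNA, at 0.34. The remaining pairs ran from -0.13 to 0.10. The cause of these correlations and of the shifts in calls was not tested. With 18 to 155 counts a library, depth limits HY1 and HY3, and HY5, at 0, could not be tested. HY4 was fitted only with no filter and was not called (edgeR adjusted p = 0.937).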
